A study of Arabidopsis thaliana with 96 samples.

Results

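Accessible chromatin at the 3′ ends of genes was examined in leaf peak lists of Arabidopsis thaliana. A peak was taken as a 3′ end peak where its summit, the base with the highest pileup of reads, lay within 300 bp of the 3′ end of a protein-coding gene and more than 500 bp from every protein-coding gene start. By this rule 26686 of the 292794 nuclear peaks in 24 lists were 3′ end peaks, while all 96 lists of the series hold 1101264 nuclear peaks. The remaining peaks of the 24 lists comprised 168702 start peaks, with a summit within 500 bp of a protein-coding start, 25639 peaks inside gene bodies and 71767 intergenic peaks.

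The series is an ATAC-seq survey, in which the transposase Tn5 cuts DNA that is not wrapped tightly in chromatin, of sorted leaf nuclei from natural accessions grown in chambers under long days. Ad-0, En-2, Hi, Mt, Og and the reference accession Col-0, with 4 lists each, had positions that could be set against the reference genes. The remaining group used here, labelled Col-0 untreated, also has 4 lists, and its file headers name naked DNA, which the labels do not. Header tag numbers were 1463227 to 4754108 per file in the 6 accessions and 10822758 to 11043945 in untreated Col-0. The 4 files of an accession differed by no more than sampling noise at shared summits and were counted as 1 sample, so that n is the number of accessions. Col-0 lies on its own sequence, where positions stood up to about 150 bp from the reference. p-values therefore measure the spread between accessions, and no test was possible between single accessions. The nuclei came from leaf alone and were measured in bulk, so that opening in fewer nuclei and weaker opening in each nucleus cannot be told apart.

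The 3′ end of a gene carries the polyadenylation signal, where the transcript is cut and RNA polymerase II then terminates. In a compact genome such as this, the stretch that follows is often the promoter of the next gene, and at some genes it starts an antisense transcript. The best studied case is FLC, a repressor of flowering, whose antisense RNAs called COOLAIR begin just beyond its 3′ end. tRNA and other small RNA genes, some of them copied by RNA polymerase III, also lie between and beside protein-coding genes.

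The 4 regions printed here show the kind of sequence concerned, and they are those among the 12 strongest shared regions described later whose summits lay downstream of the gene and outside every annotated exon in all 5 accessions with reference positions. Each is the 150 bp around the median summit, from RefSeq on TAIR10.1, whose nuclear sequence is that of TAIR10, 5′ to 3′ on the strand of the gene. Capitals mark any match, on either strand, to the G-box CACGTG, the TCP site core GGGCC, the polyadenylation signal AATAAA, the telo-box AAACCCT, the repeat GAGAGA or the TATA-like run TATATA.
AGO6, chr2:13971679-13971828, minus strand: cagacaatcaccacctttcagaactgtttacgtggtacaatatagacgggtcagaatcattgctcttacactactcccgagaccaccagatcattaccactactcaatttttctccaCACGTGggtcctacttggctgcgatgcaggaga
AT4G13400, chr4:7787347-7787496, minus strand: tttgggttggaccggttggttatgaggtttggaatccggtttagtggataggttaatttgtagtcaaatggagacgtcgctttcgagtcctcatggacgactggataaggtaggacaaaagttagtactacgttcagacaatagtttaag
BGLU27, chr3:22209253-22209402, plus strand: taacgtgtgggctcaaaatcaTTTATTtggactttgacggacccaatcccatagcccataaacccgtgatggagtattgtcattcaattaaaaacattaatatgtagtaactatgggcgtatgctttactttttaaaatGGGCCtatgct
GALS3, chr4:10899287-10899436, plus strand: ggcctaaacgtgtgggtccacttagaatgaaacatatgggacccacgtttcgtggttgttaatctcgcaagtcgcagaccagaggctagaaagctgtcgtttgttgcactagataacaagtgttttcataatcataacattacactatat

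The stretch after AGO6 held 1 G-box, a site read by bHLH and bZIP factors. That after BGLU27 held 1 GGGCC, the core of a site known for TCP factors, and 1 AATAAA on the opposite strand. The stretches after AT4G13400 and GALS3 held none of the 6 motifs.

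How often were 3′ ends accessible, compared with an even spread of peaks over the genome? The zone that the rule covers took 8.59% of the 119146348 bp of the 5 nuclear chromosomes, and this share, counted base by base, is what evenly placed summits would give. The share of peaks at 3′ ends was 8.41% in Ad-0, 8.52% in En-2, 7.51% in Hi, 9.60% in Mt, 9.24% in Og and 9.67% in Col-0. Mt, Og and Col-0 were above the genome share in all 4 files, Hi was below it in all 4, and the mean difference was 0.234 ± 0.835 percentage points (SD, n = 6, two-sided exact permutation test by sign flips, p = 0.625). As a class, then, 3′ ends did not hold more or fewer peaks than their length beyond the spread between accessions. Among the 4000 peaks of each file with the smallest p-values the share was lower than the genome share in 6 of 6 accessions, 5.89% in Mt to 7.96% in Ad-0, with a mean difference of −1.77 points (exact permutation test, adjusted p = 0.0313).

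The 3′ zone, of which about equal parts lie inside and beyond the gene, was denser in peaks than gene bodies. In Mt there were 194 summits per Mb of the 3′ zone, against 41.6 per Mb of gene body, and in Hi 42.2 against 12.1. The ratio of 3′ zone to gene body was 3.48 to 4.65 in the 6 accessions. For the part of the zone inside the gene alone, with 159 summits per Mb in Mt and 32.4 in Hi, the ratio to the gene body was 2.68 in Hi to 3.81 in Mt. The ratio of 3′ zone to intergenic sequence was 1.13 to 1.67. Gene starts were denser again, at 2.39 to 3.10 times the 3′ zone. In naked DNA the 3′ zone had 4.08 summits per Mb, gene bodies 2.40, intergenic sequence 11.4 and gene starts 3.07. The number of 3′ end peaks did not follow the number of tags: Mt, with 1752896 to 1805096 tags per file, had 1787 to 2090 such peaks, and Hi, with 2180518 to 2230281 tags, had 412 to 442.

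**Figure D1:**
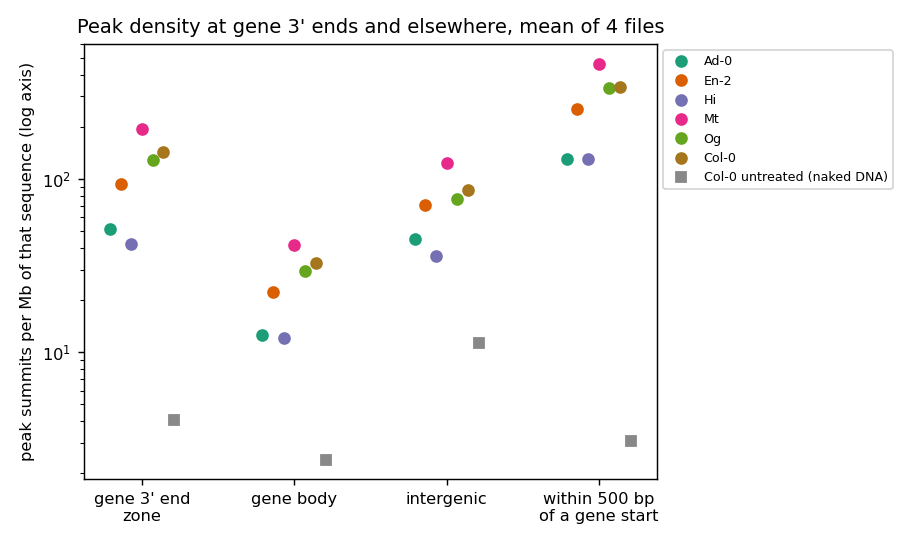
Peak summits per Mb (log axis) in the gene 3′ end zone, gene bodies, intergenic sequence and within 500 bp of gene starts, for 6 accessions (circles) and naked DNA (squares), each the mean of 4 files. In every accession the 3′ zone stands above gene bodies, by 3.48 to 4.65 times, and below gene starts.

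The peaks lay more often beyond the nearest gene end than before it, although such a peak can lie in an exon of another gene. Their summits were downstream of the gene end in 61.8% of cases in Ad-0, 62.1% in En-2, 60.97% in Hi, 58.4% in Mt, 58.5% in Og and 59.1% in Col-0. Downstream bases made up 49.2% of the zone, and the difference of 10.9 ± 1.67 points had the same direction in 6 of 6 accessions (SD, n = 6, exact permutation test, adjusted p = 0.0365, from p = 0.0313, the smallest that 6 accessions allow). Naked DNA peaks at 3′ ends were downstream in 48.7% of cases. By 50 bp steps, the density in En-2 was 63.0 per Mb in the last 50 bp of the gene, 84.3 in the first 50 bp after it and 144 between 100 and 149 bp. In each accession the densest step lay between 100 and 249 bp after the gene end, in Mt at 262 per Mb and in Hi at 63.4. For Col-0 these steps are finer than the offset of its positions, up to about 150 bp from the reference. Naked DNA stayed between 2.07 and 6.84 per Mb in all 12 steps.

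**Figure D2:**
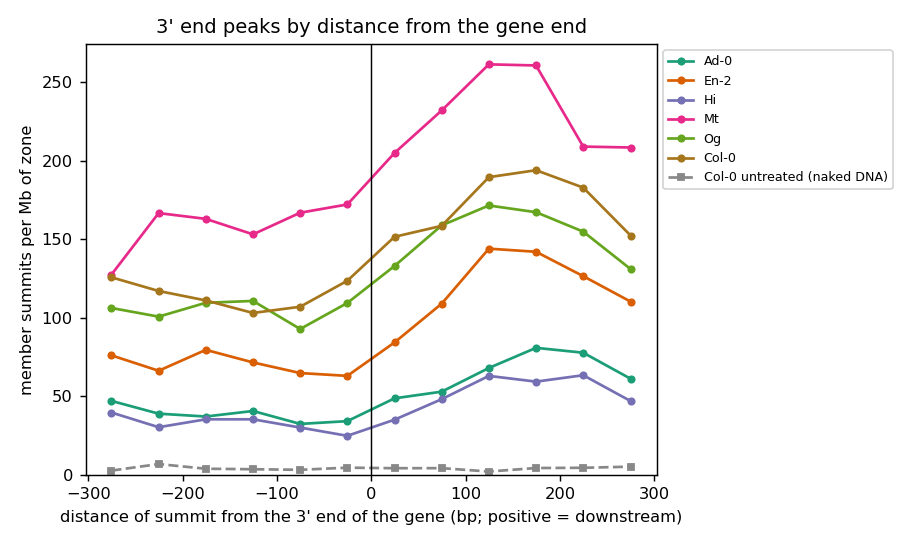
Summits of 3′ end peaks per Mb of zone (vertical axis) in 50 bp steps of distance from the 3′ end of the nearest gene (horizontal axis, positive downstream), mean of 4 files per line. The 6 accessions are low inside the gene and highest between 100 and 249 bp after it, while naked DNA (dashed) lies between 2.07 and 6.84 per Mb.

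The rule cut this distance at 300 bp. Just inside the limit, at 251 to 300 bp on either side, there were 69.3 peaks per file in Hi and 266 in Mt, with a median fold enrichment of 5.30 and 5.23. Just outside it, at 301 to 350 bp, there were 65.5 in Hi and 236 in Mt, with medians of 5.33 and 5.03. The limit of 300 bp therefore falls in a gradual slope of the number of peaks.

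Where 3′ ends of different genes came close together, peaks were scarcer. Summits within 300 bp of more than 1 protein-coding 3′ end made up 9.42% of 3′ end peaks in Ad-0, 10.2% in En-2, 7.88% in Hi, 12.7% in Mt, 11.6% in Og and 11.98% in Col-0. Such bases made up 17.9% of the zone, so that the difference was −7.23 ± 1.81 points, lower in 6 of 6 accessions (SD, n = 6, exact permutation test, adjusted p = 0.0365). By the next gene downstream, ends that face another gene end had 158 summits per Mb in Mt and 34.2 in Hi, and ends followed by a gene on the same strand 231 in Mt and 50.7 in Hi. This pooled order, lower for facing ends in each of the 6 accessions, did not hold at every distance to that gene. At 1001 to 2000 bp facing ends were denser in each of the 6, with 69.9 in Hi and 204 in Col-0, against 55.7 in Hi and 178 in Col-0 for the same strand. At 501 to 1000 bp they were denser in Ad-0, Hi, Og and Col-0, and less dense in En-2 and Mt. The 4523 facing ends that overlapped the gene opposite had 76.5 summits per Mb in Mt and 9.68 in Hi, and 67 ends overlapped a gene on the same strand. These densities are given as a description, without a test.

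A protein-coding start 501 to 1000 bp away was no more frequent beside 3′ end peaks than in the zone in general. Starts of all protein-coding genes were counted in either direction, the gene's own among them. Summits 501 to 1000 bp from such a start made up 23.98% of 3′ end peaks in Hi to 27.6% in En-2, and such bases 29.3% of the zone. In naked DNA the share was 55.6%.

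Starts of noncoding genes, which the rule did not use, were enriched beside the peaks. A noncoding start, pseudogenes included, lay within 500 bp of 20.2% of 3′ end peaks in Ad-0, 20.1% in En-2, 22.7% in Hi, 15.6% in Mt, 18.7% in Og and 20.5% in Col-0, against 8.93% of zone bases. The difference was 10.7 ± 2.38 points, higher in 6 of 6 accessions (SD, n = 6, exact permutation test, adjusted p = 0.0365). In naked DNA the share was 29.5%, over a mean of 41.8 such peaks per file, of which 16.8% were near a pseudogene and 4.77% near a tRNA gene.

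tRNA genes had the largest excess over the zone in percentage points in each accession. They lay within 500 bp of 5.65% of 3′ end peaks in Mt to 8.74% in Hi, and of 1.205% of zone bases. In Col-0 this gave 943 summits per Mb of zone near a tRNA start, against 143 per Mb in the whole zone. Genes of snoRNAs, which guide the modification of ribosomal and other RNAs, lay near 1.33% to 1.89% of the peaks and 0.280% of the zone, and snRNA genes, of the splicing machinery, near 0.419% to 1.22% and 0.139%. Annotated long noncoding RNAs differed less, with 5.53% to 6.85% of the peaks and 4.52% of the zone. Pseudogenes lay near 1.51% to 2.24% of the peaks and 1.72% of the zone. These shares by kind were not tested.

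**Figure D3:**
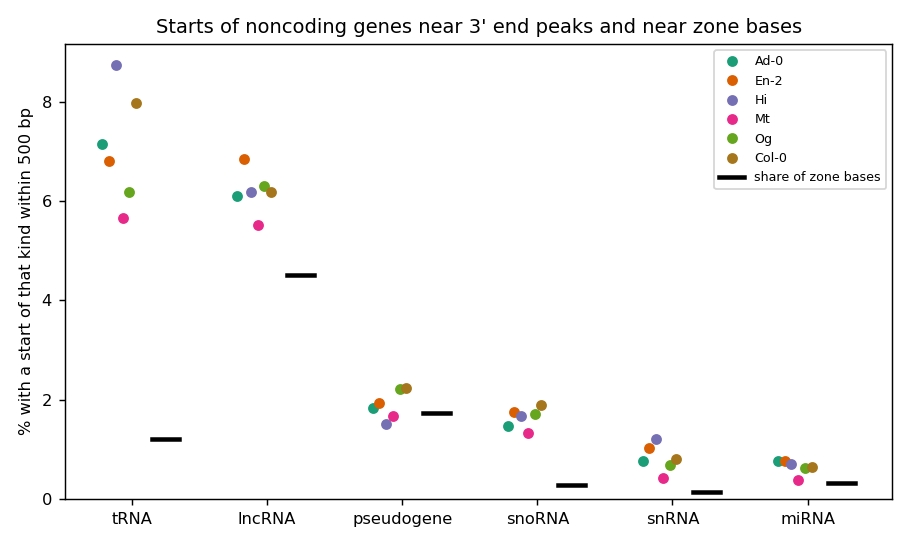
Percent of 3′ end peaks with the start of a noncoding gene of the given kind within 500 bp (points, 6 accessions, mean of 4 files), to the left of the percent of zone bases with such a start (black bars). The points for tRNA genes lie at 5.65% to 8.74%, above the bar at 1.205%, while those for pseudogenes lie on either side of their bar at 1.72%.

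Peaks at 3′ ends were weaker than peaks at gene starts. Fold enrichment, which sets the summit pileup against what surrounds it in that file, had a median of 5.42 at 3′ ends and 5.87 at starts in Ad-0, 5.46 and 6.36 in En-2, and 5.28 and 5.78 in Hi. In Mt the medians were 5.07 at 3′ ends and 6.30 at starts, in Og 4.54 and 5.50, and in Col-0 4.52 and 5.35. The 3′ end median was lower in 6 of 6 accessions, by −0.807 ± 0.295 (SD, n = 6, exact permutation test, adjusted p = 0.0365). Gene body and intergenic peaks also had lower medians than start peaks in each accession. These were 5.46 and 5.43 in Ad-0, 4.87 and 5.13 in Mt, and 4.50 and 4.66 in Col-0. A median under that of starts was thus not particular to 3′ ends. In naked DNA the medians were 2.15 at 3′ ends and 2.08 at starts.

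Peaks at 3′ ends were also less often found again in all 4 files of their accession than start peaks. The share listed in all 4 files was 60.2% of 3′ end peaks and 74.7% of start peaks in Mt, the widest gap, and 61.5% and 64.8% in Ad-0, the narrowest. Over the 6 accessions the difference was −7.92 ± 4.12 points, lower in 6 of 6 (SD, n = 6, exact permutation test, adjusted p = 0.0365). Gene body and intergenic peaks also had lower shares than start peaks in each accession. In Mt their shares were 56.1% and 62.3%. In Col-0 they were 75.3% and 76.2%, beside 74.8% at 3′ ends and 81.2% at starts. A share under that of starts was thus not particular to 3′ ends, although 3′ ends had the lowest share in every accession except Mt. The median width of 3′ end peaks was 203 bp in Mt, where start peaks had 243 bp, and 248 bp for both classes in Hi. The mean difference of −14.2 ± 14.6 bp passed the test (SD, n = 6, exact permutation test, adjusted p = 0.0365) but turned to 16.6 bp among the 4000 peaks with the smallest p-values, so no direction for width is drawn from it.

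Which sequences lay under the peaks? The 150 bp around the summits were read for the 5 accessions with reference positions and set beside every 150 bp window centred on a base of the zone. These windows were chosen by the peaks themselves, so the shares are a description without a test. The G-box CACGTG was in 11.1% of 3′ end peak windows in Ad-0, 9.82% in En-2, 11.9% in Hi, 6.42% in Mt and 7.69% in Og, against 1.26% of zone windows. The 150 bp that follow each of the 23374 gene ends held it in 1.26% of cases too. GGGCC was in 28.9% of windows in Ad-0, 31.9% in En-2, 27.2% in Hi, 23.1% in Mt and 26.1% in Og, against 4.02% of zone windows and 4.26% after gene ends. Start peaks held CACGTG in 9.79% to 16.7% of windows and GGGCC in 23.2% to 28.8%. At starts GGGCC was in 27.8% of windows in Ad-0, 28.8% in En-2, 24.9% in Hi, 23.2% in Mt and 24.9% in Og. GGGCC was thus more frequent at 3′ ends in all but Mt, although the ranges of 3′ end and start peaks overlapped. CACGTG was less frequent at 3′ ends than at starts in each of the 5 accessions.

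The other motifs differed less from the zone. AATAAA was in 28.6% to 33.8% of 3′ end peak windows, against 31.3% of zone windows. TATATA was in 14.0% to 15.9%, against 15.1%, and GAGAGA in 11.1% to 14.6%, against 12.3%. AAACCCT, found before many ribosomal protein genes, was in 1.34% to 2.97%, against 2.92% of zone windows and 3.81% to 6.45% of start peak windows, so that all but Mt lay below the zone share. GC content was 35.7% to 38.5% at the peaks and 33.9% over the zone. Without the peaks near noncoding starts, CACGTG was in 6.66% to 13.9% of windows and GGGCC in 22.0% to 31.0%. Matches were counted on both strands, and whether GC content plays a part in these shares was not tested.

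How far did accessions share accessible 3′ ends? Of 27444 protein-coding genes, 23374 had at least 1 base of zone at their end. A peak in at least 2 of 4 files was found at 552 of these gene ends in Ad-0 (2.36%), 1038 in En-2 (4.44%), 460 in Hi (1.97%), 2023 in Mt (8.65%), 1398 in Og (5.98%) and 1550 in Col-0 (6.63%), and at 34 in naked DNA (0.145%). Together 2728 genes, 11.7% of those with a zone, had a peak at the 3′ end in at least 1 accession, and 217, or 0.928%, had one in all 6.

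Summits within 150 bp of each other were joined, which gave 2743 regions. Of these 1088 (39.7%) were in 1 accession and 225 (8.20%) in all 6. Regions built in the same way from start peaks were more widely shared, with 16.3% of 13778 in all 6 accessions and 27.4% in 1. Gene body regions stood at 13.0% in all 6 and 36.8% in 1, and intergenic regions at 13.9% and 36.7%. Less sharing than at starts was thus not particular to 3′ ends. List lengths differ several fold between accessions, and among the 4000 peaks with the smallest p-values of each file the share in all 6 was 12.7% of 648 regions at 3′ ends and 21.8% of 4976 at starts. Accessions with shorter lists had more of their regions in another accession. Of the 460 regions of Hi 98.5% were found in another accession, of the 560 of Ad-0 96.6%, and of the 2033 of Mt 68.5%. In turn 19.9% of the Mt regions were found in Hi, and 88.0% of the Hi regions in Mt.

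**Figure D4:**
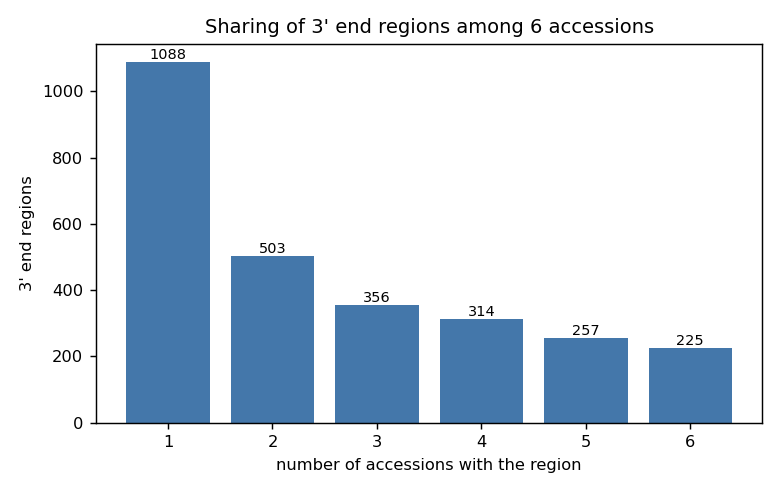
Number of 3′ end regions (vertical axis) found in 1 to 6 of the accessions (horizontal axis), a region counting where at least 2 of 4 files list it. The number is highest for regions of 1 accession, 1088, and lowest for those of all 6, 225.

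Regions shared by all 6 accessions were downstream of the gene end in 61.8% of cases, and regions of 1 accession in 54.5%. In an annotated exon of any gene lay 48.0% of the regions of all 6, 53.9% of those of 1 accession and 50.1% of all 2743 regions. Outside every annotated exon and every protein-coding gene lay 50.2% of the regions of all 6 and 44.4% of those of 1 accession. Of the 145 regions near a tRNA start 21 (14.5%) were in all 6 accessions, as were 6 of 31 near a snoRNA start, 3 of 14 near an snRNA start and 15 of 156 near a long noncoding RNA start. Of the 2309 regions with no noncoding start near, 167 (7.23%) were in all 6. These counts are small and were not tested.

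In 89 regions all 4 files of all 6 accessions listed a peak and no naked DNA peak overlapped. The 12 with the highest median fold enrichment fall into those beside an RNA gene and those without one. The strongest, after AGO6, which encodes an Argonaute protein of the RNA-directed DNA methylation pathway, lay 159 bp beyond the gene end, on chromosome 2 at 13971571 to 13972044. Its mean fold enrichment was 23.2 in Ad-0, 24.8 in En-2, 17.7 in Hi, 19.2 in Mt, 12.02 in Og and 20.4 in Col-0. The nearest other gene, ZFN2, was 2800 bp from the summit, and the Og files, at 10.5 to 13.8, lay below those of the other 5 accessions, whose lowest file was 15.0.

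Of the 12, 3 lay at tRNA genes. Near a tRNA start lay 9.33% of the 225 regions of all 6 accessions and 5.29% of all 2743 regions. No noncoding start lay within 500 bp of 74.2% and 84.2% of these. The 12 were picked by strength, and their counts were not tested. Beyond AT5G11480, a P-loop hydrolase gene, the summit was 129 bp from the start of a tRNA-Phe gene, with mean fold enrichment of 20.4 in Ad-0, 22.7 in En-2, 11.2 in Hi, 23.9 in Mt, 15.3 in Og and 17.8 in Col-0. Beyond AT5G39890, annotated as a 2-aminoethanethiol dioxygenase, it fell on the start of a tRNA-Ala gene. There the mean was 6.79 in Ad-0, 14.8 in En-2, 17.9 in Hi, 19.3 in Mt, 19.5 in Og and 19.3 in Col-0, and the Ad-0 files, 5.24 to 8.99, did not overlap those of any other accession. At AT5G50990, a tetratricopeptide repeat gene, the summit was 77 bp from the start of a tRNA-Tyr gene on the other strand, with 5.34 in Ad-0, 16.0 in En-2, 12.9 in Hi, 20.6 in Mt, 9.94 in Og and 14.6 in Col-0. Again the Ad-0 files, 3.96 to 6.02, were the lowest.

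Other noncoding genes stood beside 3 more. At RR3, a response regulator of cytokinin signalling, the summit was 226 bp inside the gene, in an exon, and 147 bp from the start of a long noncoding RNA, AT2G09250, that runs against it. Its mean fold enrichment was 20.7 in Ad-0, 22.6 in En-2, 17.8 in Hi, 12.6 in Mt, 15.6 in Og and 17.8 in Col-0. After SDH1-2, a subunit of mitochondrial succinate dehydrogenase, the summit was 36 bp beyond the gene and 69 bp from the start of the noncoding RNA gene GUT15, with 7.77 in Ad-0 and 18.0 in Mt as the lowest and highest means. In an intron of AT1G49700 near its end, the start of an RNA gene of unassigned class, AT1G07577, was 238 bp away, and the means were 7.66 in Ad-0 to 21.9 in En-2.

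The remaining 5 had no noncoding start within 500 bp. They lay 199 bp beyond AT4G13400, a 2-oxoglutarate-dependent oxygenase gene (10.7 in Ad-0 to 19.3 in En-2), 171 bp beyond BGLU27, a beta-glucosidase gene (6.83 in Hi to 19.3 in En-2), and 226 bp beyond GALS3, a glycosyltransferase gene (6.55 in Ad-0 to 17.9 in Mt). Inside their genes lay the regions of AT2G42900, 149 bp before the end (14.5 in Hi to 24.04 in Col-0), and of AT5G45590, which encodes a ribosomal protein L35, 36 bp before it (7.53 in Ad-0 to 19.1 in Col-0).

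**Figure D5:**
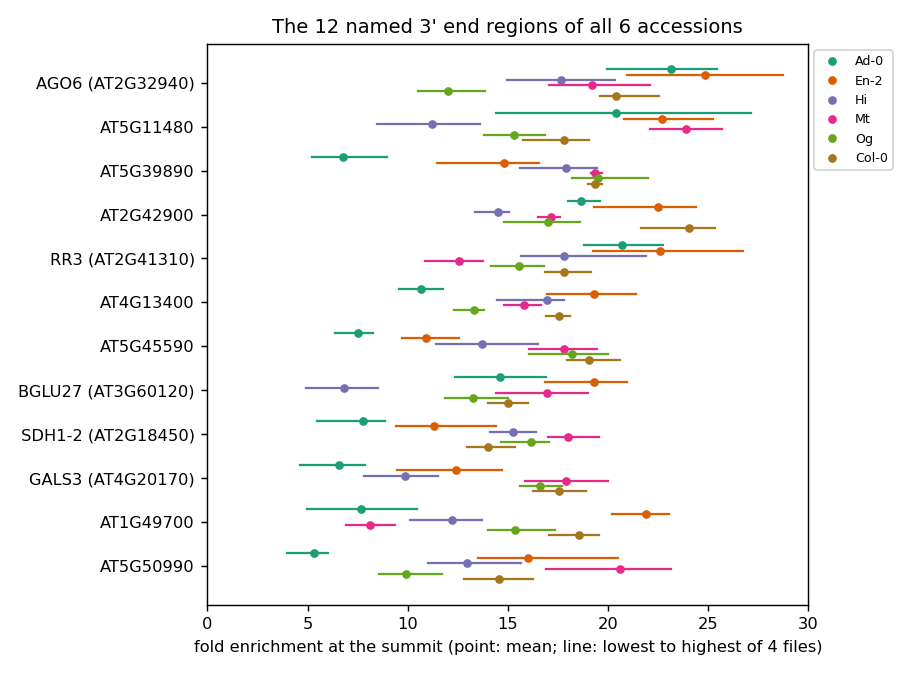
Fold enrichment at the summit (horizontal axis) of the 12 named 3′ end regions of all 6 accessions, with the mean of 4 files as a point and their lowest to highest value as a line. AGO6 has means of 12.02 in Og to 24.8 in En-2, and at AT5G39890 the Ad-0 line, 5.24 to 8.99, lies apart from the others.

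Regions that belonged to 1 accession, with all 4 files listing them and no peak within 150 bp in the other 5, numbered 65 in Mt, 32 in Col-0, 2 in Og, 1 in En-2 and 0 in Ad-0 and Hi. The strongest in Mt was in an intron of AT5G36900, 256 bp before the gene end, with fold enrichment of 12.6 to 15.1. In Col-0 it was in AT1G50290 with 8.79 to 11.3, in En-2 in AT5G54700, an ankyrin repeat gene, with 6.95 to 9.86, and in Og after AT5G38310 with 3.82 to 5.63. Of regions listed in at least 2 files there were 2033 in Mt, 1561 in Col-0, 1399 in Og, 1040 in En-2, 560 in Ad-0 and 460 in Hi. Regions of 1 accession were not counted in this way for other classes of peaks. A list can lack a peak through weak coverage or through sequence that could not be aligned, and these were not tested. Col-0 positions also stand up to about 150 bp from the reference, as far as the margin used here. Whether this offset adds to the 32 Col-0 regions was not tested.

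Conversely, regions in all 4 files of 5 accessions with no peak in the remaining one numbered 23 in Hi, 13 in Ad-0, 1 in Mt, 1 in Og and 0 in En-2 and Col-0. This count, too, was not made for other classes of peaks. Hi lacked the region 158 bp after AT3G59880, which had 12.8 in Ad-0, 12.5 in En-2, 11.1 in Mt, 10.2 in Og and 13.4 in Col-0. Ad-0 lacked that of AT4G16060, at the gene of the U4atac spliceosomal RNA, which had 6.36 in En-2, 9.50 in Hi, 12.7 in Mt, 10.6 in Og and 14.6 in Col-0. Mt, with the longest lists, lacked the region 27 bp after AT3G46020, an RNA-binding protein gene, which had 7.76 in Col-0 to 10.5 in En-2. Og lacked that of AT3G29173, which had 4.82 in Ad-0 to 12.8 in Mt. Mt lists held 18995 to 21327 nuclear peaks and Og lists 13569 to 15010, while Ad-0 lists held 5721 to 6472 and Hi lists 5564 to 5829. Why these regions are absent from them was not tested.

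Among the 5 genes known for an antisense RNA from their 3′ side, 4 had a peak there in at least 2 files of some accession, where 11.7% of all gene ends had one, and none had one in all 6. FLC counts through Og alone, MAF4 through Mt alone and HSFB2A through Col-0 alone. The HSFB2A summits in Col-0 lay 289 to 296 bp before the gene end, close to the 300 bp limit. Col-0 positions stand up to about 150 bp from the reference, so whether HSFB2A belongs cannot be told. At FLC the start of the antisense RNA AT5G01675 is annotated 11 bp beyond the gene end. In Og all 4 files listed a peak there, 51 to 125 bp downstream, with fold enrichment of 4.02, 3.82, 4.04 and 3.52. A file of Mt listed one with 5.10 and a file of En-2 one with 3.68, and Ad-0, Hi and Col-0 listed none. The FLC values in Og and En-2 were under the medians for 3′ end peaks there, 4.54 and 5.46. The single Mt value, 5.10, was near the Mt median of 5.07.

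At DOG1, which sets seed dormancy, 4 of 4 files had a peak 199 to 279 bp before the gene end in En-2 (mean 5.34), Mt (8.17) and Og (6.32). In Col-0 3 of 4 had one, 282 to 283 bp before it (6.86). Ad-0 and Hi had none. The Col-0 summits lay close to the 300 bp limit. With Col-0 positions up to about 150 bp from the reference, whether these summits belong cannot be told. MAF4, a relative of FLC, had a peak in 2 files of Mt, with 4.27 and 4.01. HSFB2A, a heat shock factor gene, had one near the inner limit of the zone in 3 files of Col-0 (3.38, 4.72 and 3.56) and one in 1 file of Mt (3.20). AT1G69570, the Dof factor gene CDF5, had none in any file, although a long noncoding RNA against it starts 23 bp inside its end.

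The lists of other gene families are described by their counts, beside 11.7% of all gene ends with a peak in at least 1 accession and 0.928% in all 6. Of 46 genes for light harvesting, photosystems and the Rubisco small subunit, 13 (28.3%) had a 3′ end peak in at least 1 accession, 2 in Ad-0, 3 in En-2, 3 in Hi, 8 in Mt, 6 in Og and 10 in Col-0, and 2 had one in all 6. LHCB4.1, an antenna protein of photosystem II, had mean fold enrichment of 6.28 in Ad-0, 7.0 in En-2, 4.81 in Hi, 6.53 in Mt, 4.86 in Og and 6.75 in Col-0, from 157 bp before to 95 bp after the gene end. RBCS3B, a small subunit of Rubisco, had 5.07 in Og to 7.23 in En-2, all before the gene end, but near-identical copies of this gene lie beside it and reads could be split between them.

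Genes described as ribosomal proteins were near the background, with 34 of 268 (12.7%) in at least 1 accession and 4 in all 6. Besides AT5G45590, a gene for a ribosomal protein L36, AT5G20180, had peaks 178 to 269 bp downstream with means of 8.29 in Hi to 15.3 in En-2. RPL23AB had means of 7.09 in Hi to 11.7 in Col-0. Its median summit was 9 bp beyond the gene end in Col-0 and 90 to 123 bp beyond it in the other 5 accessions, and Col-0 positions lie on a sequence of their own.

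Of 48 Aux/IAA and ARF genes of auxin response, 5 had a 3′ end peak in at least 1 accession and 2 had it in all 6. IAA7 had one inside its end with means of 7.53 in Hi to 13.5 in En-2, and ARF11 one with 4.41 in Mt to 11.8 in En-2. Of 64 WRKY genes, factors of defence and senescence, 5 (7.81%) had one in some accession and 0 in all 6. None of 8 clock genes and none of 11 seed storage and oleosin genes with a zone had one in at least 2 files of any accession. At gene starts, where 53.4% of all genes had a peak in some accession, 47 of 48 photosynthesis genes had one, against 4 of 12 seed storage and oleosin genes, which are seed genes.

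How did the 3′ ends compare with naked DNA? In Col-0 chromatin 9.67% of peaks were at 3′ ends, 1434 to 1483 per file, against 6.09% in untreated Col-0, 36 to 48 per file, although untreated Col-0 had more tags. The Col-0 chromatin files count as 1 sample, while files of untreated Col-0 differed by up to 4.88 times sampling noise at shared summits, and no test was made between these groups. Of the naked DNA peaks at 3′ ends 64.9% lay in a Col-0 chromatin peak. Conversely 1.90% of the 3′ end peaks of Col-0 overlapped a naked DNA peak, as did 0.813% in Mt to 5.16% in Ad-0. For start peaks these shares were 0.529% in Col-0 and 0.295% in Mt to 1.51% in Ad-0.

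Naked DNA had 37 regions at 3′ ends in at least 2 of its files, and 26 of them also held a peak in at least 2 Col-0 files. Of the 37, 25 were at genes numbered AT2G07, in the part of chromosome 2 that carries an insertion of mitochondrial DNA. The strongest lay at MEE38, with a mean of 16.1 in naked DNA and peaks in 4 files of Ad-0 and of En-2, 2 of Og and of Col-0 and 1 of Hi and of Mt. NUB, a zinc finger gene of organ growth, came next with 12.4 and had a peak in all 24 chromatin lists. AT2G07565 had 11.3 and AT2G07732 8.29, both in all 24 lists as well. TPC1, a vacuolar channel gene, had 11.0, and AT3G18282 had 5.11. At these genes a chromatin peak cannot be told apart from the signal that DNA without chromatin gives.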

How the data were processed

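Members and lists were chosen with earlier results of these data known. The deposited lists come from the authors' MACS2 2.1.2 calls in each file after alignment with Bowtie 1.2.2, without a control, at a q-value cutoff of 0.05. The authors' pileup signal is the height of extended tags, the fold enrichment is a ratio to local background, and −log10 p-values and q-values are deposited too. Of 96 files, 28 were used; the others lie on other sequences. Gene models were those of RefSeq TAIR10.1. Shuffled positions were replaced by counting bases of the zone. Pileups of files of an accession had a dispersion index of 0.815 to 0.923 (36 pairs, binomial draws give about 1; 0.745 to 4.88 in naked DNA). No intervals were computed, since lists hold no counts outside peaks. Accession means were tested by all 64 sign flips with Benjamini-Hochberg adjustment over 7 tests, checked on simulated data. Python 3.11.15, NumPy 2.4.6, pandas 2.3.3 and matplotlib 3.10.9 were used. Named regions were the 12 strongest in all 24 lists without naked DNA, the strongest found in or missing from 1 accession each, the antisense list, up to 3 genes per other list with a region in all 6, and the 6 strongest of naked DNA. Gene lists follow symbols and descriptions, and genes of other functions that share them were removed after values were seen. Alternatives were a q-value of 0.001, 4000 peaks per file, other distances, starts of all annotated genes, peaks listed in another file, no overlap with naked DNA, and each file or accession left out.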

Additional observations from a re-analysis of the deposited data

Results flagged for a closer look

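The share of peaks at 3′ ends minus the genome share was above 0 in all 4 files of Mt (mean 1.01 percentage points), Og (0.647) and Col-0 (1.08) and below 0 in all 4 files of Hi (−1.08). Whether accessions differ in this share was not tested, since the files of an accession are counted as 1 sample. Mt, Og and Col-0 also had the longest lists, and Hi the shortest.

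Of 56 sets of 4 files examined, 2 had a file far from the others, where chance gives about 1 in 20. The median width of 3′ end peaks was 212.5 bp in replicate 1 of Ad-0, against 200.5 to 202 bp in the other 3 files. The share near a noncoding start was 17.9% in replicate 4 of Og, against 18.9% to 19.1% in the other 3.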

How the results depend on the processing

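The values that follow are means over accessions under the alternatives, and the cause of each change was not tested. The share of peaks at 3′ ends minus the genome share was −1.77 points with the 4000 smallest p-values, −0.0276 with 3′ ends within 150 bp and −0.719 with the starts of all annotated genes. The width difference was 16.6 bp with the 4000 smallest p-values, −11.7 bp at a q-value of 0.001, −10.2 bp over 1000 bp from starts and −8.40 bp for peaks listed in another file, and the last 3 lost the call (exact permutation test, adjusted p = 0.0729, 0.109 and 0.188). Leaving out a replicate gave −14.7 to −13.3 bp, and the call was also lost without replicate 2 or replicate 3.

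Leaving out an accession lets p reach 0.0625 at best, so the 6 calls are lost by construction. The ranges were −0.880 to −0.723 for fold enrichment, −16.95 to −9.05 bp for width, −8.86 to −6.61 points for listing in all 4 files, 10.6 to 11.3 points for downstream, −7.65 to −6.68 points for more than 1 gene end and 10.1 to 11.5 points for noncoding starts. Genes with a region numbered 649 with the 4000 smallest p-values, 1512 in all 4 files and 1660 within 150 bp, and shared regions 82, 91 and 77 in the same order.

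With the starts of all annotated genes, the share near noncoding starts has no value. No paired analysis was possible because the replicate numbers only name files counted as 1 sample. The tests of 3′ end against start peaks did use differences within each accession. Gene models, list length and the Col-0 offset limit all counts, and peak lists cannot show accessibility under the calling threshold.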
